A study of Mus musculus with 2 samples.

Results

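Iron-sulfur clusters are small cofactors of iron and sulfide that proteins carry for electron transfer, catalysis and iron sensing. In mitochondria they are built on a scaffold protein, handed on by a chaperone system and a glutaredoxin, and then enlarged and delivered to their client enzymes by late-acting proteins. Red cell precursors depend on this pathway because ferrochelatase, the enzyme that closes haem synthesis, carries such a cluster, and because a cluster decides whether iron regulatory protein 1 (encoded by Aco1) binds RNA. Loss of GLRX5 or HSCB function is a known cause of inherited sideroblastic anaemia, and loss of BOLA3, NFU1, ISCA1, ISCA2 or IBA57 of a group of mitochondrial disorders with failing lipoate-dependent enzymes.

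The 8 genes described are Nfs1, Iscu, Hscb, Glrx5, Isca1, Isca2, Nfu1 and Bola3, named by their role in the pathway through a rule that uses no measured value, although earlier results of these data were known when they were picked, out of 43346 genes with an Ensembl identifier in the tables. All 8 were present, with 34 annotated transcripts between them. They were measured in MEL cells, an immortalized mouse erythroleukemia line that turns toward haemoglobin-making cells in dimethyl sulfoxide. All libraries came from cells kept for 5 days in 2% dimethyl sulfoxide, in 1 group of 2 libraries that the labels call biological replicates 1 and 2 and tie to the same cell sample identifier, which leaves it unclear if they were grown apart. No untreated cells are part of the series, so nothing below is a response to the treatment, and no test between conditions was possible.

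The libraries held 26149725 and 14149299 estimated reads in replicates 1 and 2. A count of 0 allowed up to 0.115 and 0.212 CPM (reads scaled to the size of the library). The 9 erythroid marker genes were all detected, with a median of 299 TPM, a level scaled for transcript length and for depth. Their summed levels were 20684 and 35465 TPM. In replicates 1 and 2, models typed as retained introns held 80.3% and 96.1% of Hba-a1 and 76.4% and 67.1% of Hbb-bs, the highest of these markers. Alas2 and Slc4a1 were led by models typed processed_transcript. Of the 4 megakaryocyte markers 3 were detected, with summed levels of 91.5 and 181 TPM. None of the 15 myeloid, lymphoid, stem cell and fibroblast markers reached 1 TPM in both libraries. Cd3e (2.05 TPM in replicate 1, 0.58 in replicate 2) and Lyz2 (0.47 and 1.08 TPM) reached it in 1 library each. S100a8, S100a9, Pax5, Procr and Dcn were at 0 in both. The libraries stood well apart: of 11452 protein-coding genes averaging at least 10 counts, 31.6% differed by more than 2-fold in CPM, and the ratio ran with GC content, as given for the members below.

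All 8 assembly genes were detected, taken as at least 1 TPM in both libraries, against 45.5% of all protein-coding genes. Their levels formed a high pair and a lower group of 6. Glrx5 and Bola3 held 69.81% of the summed TPM of the 8 genes in replicate 1 and 77.996% in replicate 2, and the other 6 genes had means between 22.5 and 42.6 TPM. The median of the 8 was 32.0 TPM, beside 15.5 TPM for detected protein-coding genes, whose quartiles were 6.54 and 38.1 TPM. Each of the 8 means was above that median, though in replicate 2 Hscb (12.5 TPM) stood at percentile 42.0 of detected genes. Over transcripts typed protein_coding alone, the means of Hscb (10.3 TPM) and Iscu (9.4 TPM) fell under 15.5 TPM, a median over all transcripts. In order of mean level the genes ran Glrx5, Bola3, Nfu1, Isca1, Iscu, Isca2, Hscb and Nfs1. The values of Bola3 and Nfu1 did not overlap between the libraries, while every other pair of neighbours in that order did. Within the lower group, Nfu1 lay wholly above Isca2 and Nfs1 in both libraries, and Isca1 lay wholly above Nfs1.

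**Figure D1:**
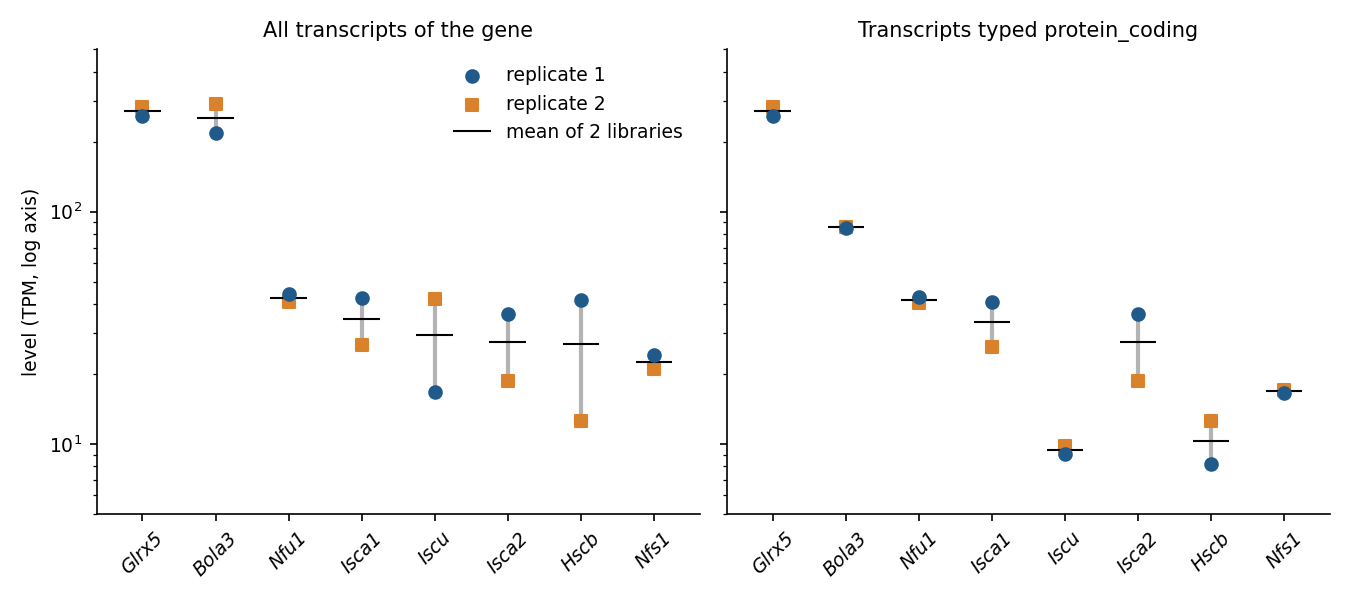
Level of each gene in each library in TPM on a log axis, over all transcripts of the gene (left) and over transcripts typed protein_coding (right), with circles for replicate 1, squares for replicate 2 and a bar for their mean. On the left Glrx5 and Bola3 stand above the other 6 genes and Iscu and Hscb are the most spread; on the right Bola3 stands at 85.3 and 85.7 TPM and Iscu at 9.03 and 9.80 TPM.

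Nfs1 (ENSMUSG00000027618, chr2:156123639-156144186 of mm10, minus strand) encodes the cysteine desulfurase that supplies the sulfur. It had 24.1 TPM in replicate 1 and 20.9 TPM in replicate 2 (mean 22.5 ± 2.26, SD, n = 2), from 1015 and 435 estimated reads. The libraries were close at this gene, and it was the lowest of the 8 by mean. Its principal coding transcript Nfs1-201 held 59.4% and 54.8% of the gene's TPM in replicates 1 and 2. Nfs1-203, typed as a retained intron, held 31.1% and 18.1%, and Nfs1-204, a coding model of 510 bases whose start is incomplete, held 9.16% and 27.1%. Nfs1-203 follows the coding transcript through exon 4 and then keeps 1222 bases of the next intron. The boundary is shown because Nfs1-203 and Nfs1-201 part here, with the bases after exon 4 in capitals.
Nfs1-203, running on into the intron (chr2:156139743-156139714, read on the minus strand): aacatagcaattaagGTAGGAGGAGGGATG
Nfs1-201, exon 4 joined to exon 5: aacatagcaattaagGGAGTGGCCAGGTTC

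Counted over transcripts typed protein_coding alone, Nfs1 stood at 16.6 and 17.1 TPM. Within that sum Nfs1-201 had 14.3 and 11.5 TPM and the incomplete Nfs1-204 had 2.21 and 5.68 TPM. The Nfs1 locus overlaps 2 other genes. Romo1, on the opposite strand, had 66.0 and 218 TPM. Gm28036, on the same strand, had 5.14 and 4.21 TPM from 663 and 283 estimated reads. Strand could not tell apart any reads that fit both Gm28036 and Nfs1. Neither the labels nor the headers say whether counting used the strand, so reads in the overlap with Romo1 cannot be assigned with certainty.

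Iscu (ENSMUSG00000025825, chr5:113772748-113778288, plus strand) encodes the scaffold on which the cluster is first put together. It had 16.7 TPM in replicate 1 and 41.9 TPM in replicate 2 (mean 29.3 ± 17.8, SD, n = 2), from 337 and 353 estimated reads. Replicate 2 was 2.51-fold higher in TPM, with no overlap of the posterior bounds deposited for the 2 libraries (14.3 to 19.3 and 34.6 to 44.3 TPM, at a credibility level that the headers do not name). Nearly all of that gap lay on Iscu-205, a model of 489 bases typed for nonsense-mediated decay, the removal of transcripts with an early stop. Iscu-205 had 7.44 TPM in replicate 1 and 30.7 TPM in replicate 2, which was 44.5% and 73.3% of the gene. The 3 expressed coding transcripts, Iscu-201, Iscu-202 and Iscu-203, differed in share between the libraries (21.3%, 28.3% and 4.39% in replicate 1, then 5.10%, 7.59% and 10.7% in replicate 2). Their sum was 9.03 and 9.80 TPM, a ratio of 1.09, but its parts were loosely bounded. Iscu-203 had 0.73 and 4.48 TPM, with deposited posterior bounds of 0.036 to 2.38 and 1.87 to 6.17 TPM. Iscu-201 had 3.57 and 2.14 TPM, with bounds of 1.15 to 4.46 and 0.0015 to 4.27 TPM.

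Iscu-205, a model whose start is marked incomplete, begins with a first exon of 72 bases within the first intron of Iscu-201 and then joins the same exon 2. The joins are shown with the first exon in capitals, because the 2 models part here at their 5′ side.
Iscu-205, first exon joined to exon 2 (chr5:113773082-113773096 and chr5:113774263-113774277): GAAGGGAGGGTCCGGgttgtggatcattat
Iscu-201, first exon joined to exon 2 (chr5:113772930-113772944 and chr5:113774263-113774277): CTCTACCACAAGAAGgttgtggatcattat

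Deposited effective lengths were 44 bases shorter than the transcripts, as when reads of 45 bases are placed along them. Of the 445 windows of 45 bases in Iscu-205, 0 occurred in that transcript alone, since its join is also part of Iscu-204 and Iscu-207, while Iscu-202 had 720 of 1351 windows to itself. The amount given to Iscu-205 therefore comes from dividing shared windows, and not from reads that only this model could hold. Among the coding models, Iscu-201 had 70 of 913 windows to itself and Iscu-203 had 43 of 1072, so their amounts also lean on shared windows. Gm16437 on chromosome 19, a processed pseudogene 98.4% identical to the Iscu coding sequence over 504 bases, was given 0.33 and 0.54 TPM, so reads that fit both were placed almost wholly on Iscu.

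Hscb (ENSMUSG00000043510, chr5:110829070-110839777, minus strand) encodes the co-chaperone that brings the loaded scaffold to the mitochondrial Hsp70. It had 41.6 TPM in replicate 1 and 12.5 TPM in replicate 2 (mean 27.0 ± 20.6, SD, n = 2), from 455 and 130 estimated reads. In TPM replicate 1 was 3.33-fold higher, the widest gap among the 8 genes and opposite in direction to Iscu. The gap came from Hscb-202, typed as a retained intron, which held 304 reads and 80.3% of the gene's TPM in replicate 1 and 0 reads in replicate 2. Its deposited posterior bounds were 21.57 to 34.96 TPM in replicate 1, and in replicate 2 they reached up to 2.96 TPM. The coding transcript Hscb-201 had 8.20 TPM from 151 reads in replicate 1 and 12.5 TPM from 130 reads in replicate 2. On the coding transcript the value was higher in replicate 2, but the deposited posterior bounds of the 2 libraries overlapped (6.01 to 9.45 and 8.36 to 12.7 TPM).

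Hscb-202 is a short model of 420 bases that starts within an intron, keeps its last 96 bases and continues through the closing exons of Hscb-201. The boundary into exon 4 is shown with the differing upstream part in capitals.
Hscb-202, intron running into the exon (chr5:110834814-110834785, read on the minus strand): GCTCCTCCCCAATAGctaaagctccaggga
Hscb-201, exon 3 joined to exon 4: AGAGGACTATATCTTctaaagctccaggga

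Here 94 of the 376 windows of Hscb-202 and 256 of the 760 windows of Hscb-201 occurred in that transcript alone. Without the aligned reads it was not possible to see how many fell in those windows, so the presence of the intron model in replicate 1 and its absence in replicate 2 remains an estimate of the deposited tables.

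Glrx5 (ENSMUSG00000021102, chr12:105032688-105042906, plus strand) encodes the mitochondrial glutaredoxin that takes the cluster from the chaperone step to later acceptors. It was the highest of the 8 genes by mean, with 259 TPM in replicate 1 and 283 TPM in replicate 2 (mean 271 ± 17.1, SD, n = 2), from 5551 and 3431 reads. Those values put it at percentile 97.0 and 97.4 of detected protein-coding genes. The libraries differed by 1.09-fold in TPM. The tables hold 1 transcript for Glrx5, of 930 bases, so no split of reads entered its level, and it is the most deeply counted of the 8. The later annotation gives the same transcript 2925 bases, so the level depends on which length is used. By distance in log2(TPM + 0.1) over the 2 libraries, the protein-coding genes with levels most like those of Glrx5 were Acin1 (251 and 272 TPM), Eif1 (275 and 292 TPM) and H1f0 (273 and 296 TPM), at distances of 0.072, 0.097 and 0.101. As 64 genes lay within 0.5, 2 libraries do not single these out.

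The late proteins Isca1 and Isca2 work together to form the larger cubane clusters. Isca1 (ENSMUSG00000044792, chr13:59755409-59769810, minus strand) had 42.5 TPM in replicate 1 and 26.8 TPM in replicate 2 (mean 34.6 ± 11.1, SD, n = 2), from 1977 and 702 reads. Isca2 (ENSMUSG00000021241, chr12:84773251-84775088, plus strand) had 36.4 TPM and 18.6 TPM (mean 27.5 ± 12.6, SD, n = 2), from 726 and 210 reads. Both were higher in replicate 1, by 1.59-fold and 1.95-fold in TPM, and their ranges overlapped each other. For these 2 genes the gap did not sit on a side transcript: Isca1-201, the coding transcript, held 96.1% and 97.4% of Isca1, and Isca2 has a single transcript. The Isca1 locus overlaps the antisense gene Etohd2 (1.28 and 0.75 TPM) and Gm49354, which is not analysed here. AK157302, a gene 99.0% identical to Isca1 over 1914 bases, was given 4.1 and 0 reads.

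Nfu1 (ENSMUSG00000029993, chr6:87009236-87028461, plus strand) encodes a carrier that delivers clusters to lipoate synthase and other late clients. It had 44.4 TPM in replicate 1 and 40.9 TPM in replicate 2 (mean 42.6 ± 2.50, SD, n = 2), from 900 and 468 reads, so the libraries were close. Nfu1-202 held 95.8% and 97.0% of it. The later annotation gives Nfu1-202 a coding sequence of 765 bases beside 768 for Nfu1-201, but its length there (950 bases) is not the 884 bases of the tables, so its structure in the tables is not known here. A processed pseudogene, Gm7859, is 95.7% identical to Nfu1 over 771 bases and is not analysed here.

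Bola3 (ENSMUSG00000045160, chr6:83349147-83360136, plus strand) encodes the partner that acts with Nfu1 and Glrx5 in delivery. It had 217 TPM in replicate 1 and 290 TPM in replicate 2 (mean 253 ± 51.6, SD, n = 2), from 2433 and 1817 reads. Of its 9 transcripts the leading one was not a coding model: Bola3-206, typed processed_transcript and 464 bases long, held 126 and 187 TPM, which was 58.3% and 64.5% of the gene. The coding transcript Bola3-203, of 554 bases, had 85.0 and 85.4 TPM, or 39.2% and 29.4%. By these estimates the coding level of Bola3 differed by 0.44 TPM between the libraries. The deposited posterior bounds of Bola3-203 were far wider, at 69.7 to 93.4 TPM in replicate 1 and 59.8 to 94.0 TPM in replicate 2. The 73.0 TPM by which replicate 2 exceeded replicate 1 lay almost wholly on non-coding models. Bola3-207, which the later annotation ranks as the principal protein form, had 0.27 and 0.29 TPM, and Bola3-202 was listed at 0 in both.

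The models differ in where they start. Bola3-203 starts at position 83349147 and Bola3-207 at 83349446, each with its own start codon in its first exon, so that they encode 95 and 110 codons. Bola3-206 starts further in, at 83352095, with a first exon of 188 bases that carries no coding sequence, and then joins exon 3 of Bola3-203. The joins are shown with the upstream exon in capitals.
Bola3-206, own first exon joined to exon 2 (chr6:83352268-83352282 and chr6:83353042-83353056): TCCCTTCCCCCTGAGgaggctgcggggcca
Bola3-203, exon 2 joined to exon 3 (chr6:83351375-83351389 and chr6:83353042-83353056): TCACAGACATCTCAGgaggctgcggggcca

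Bola3-206 had 186 of 420 windows to itself and Bola3-203 had 87 of 510, so both models of this gene have stretches that only they hold, unlike Iscu-205. In Nfs1 the retained-intron model Nfs1-203 had 1221 of 1605 windows to itself, nearly all from the kept intron.

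**Figure D2:**
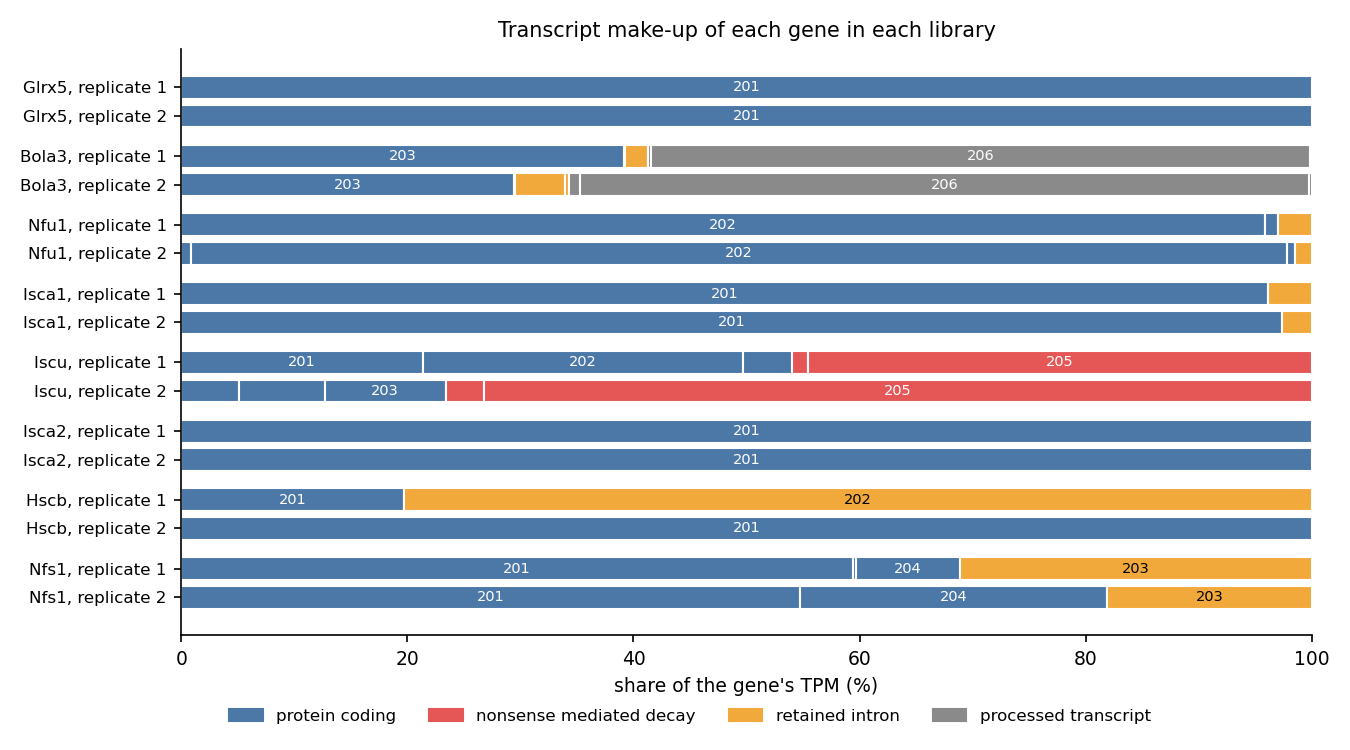
Share of each gene's TPM held by each of its transcripts, as stacked bars from 0 to 100%, with 1 bar per library and colours for the annotated transcript type; numbers name transcripts with a larger share. Glrx5 and Isca2 have 1 transcript, Isca1 and Nfu1 are over 95% one coding transcript, and in Iscu, Hscb and Bola3 the leading type is not protein coding in at least 1 library.

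By mean TPM, 3 of the 8 genes (Iscu, Hscb and Bola3) were led by a transcript not typed protein_coding, beside 18.2% of detected protein-coding genes. Of the 6 members with several transcripts, 1 (Hscb) was led by a different transcript in the 2 libraries, beside 30.6% of such genes. By estimated reads in place of TPM, which weights long transcripts more, Iscu also changed its leading transcript, from Iscu-202 in replicate 1 to Iscu-205 in replicate 2. The libraries lay closer on coding-typed transcripts than on all transcripts in 6 of the 6 members that have TPM on transcripts of other types, beside 45.3% of detected protein-coding genes of that kind. The margin was small in Isca1 (log2 TPM ratio of -0.64 on coding-typed transcripts, -0.66 on all) and in Nfu1 (-0.10 and -0.12). In Nfs1 the principal Nfs1-201 alone had 14.3 and 11.5 TPM. The near-equal coding sum of Nfs1 includes the incomplete Nfs1-204, which had 42 of 466 windows to itself. Its deposited posterior bounds were 0.26 to 4.01 TPM in replicate 1 and 2.97 to 7.87 TPM in replicate 2. The count of 6 thus rests partly on loosely bounded splits, in Nfs1 and in Iscu. Summed over the 8 genes, coding-typed transcripts held 498 and 493 TPM, and the others 183 and 242 TPM. In order of coding-typed level the genes ran Glrx5, Bola3, Nfu1, Isca1, Isca2, Nfs1, Hscb and Iscu, which places the scaffold last. On this scale Glrx5 and Bola3 no longer overlapped, nor did Isca2 and Nfs1 or Nfs1 and Hscb, while Hscb (8.20 and 12.5 TPM) and Iscu (9.03 and 9.80 TPM) did.

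The difference between the 2 libraries was next set beside that of other genes, as the log2 ratio of CPM, replicate 2 over replicate 1. It is 1 library against 1, with no replicate check, and the 95% intervals given cover counting error only. None of the 8 genes was more than 2-fold higher, beside 22.3% of the 11452 protein-coding genes, and none was more than 2-fold lower, beside 9.3%. Iscu was closest to the upper limit at 0.95 (0.73 to 1.17), and Hscb and Isca2 to the lower one at -0.91 (-1.21 to -0.64) and -0.90 (-1.13 to -0.68). The 3 genes higher in replicate 2 were Iscu, Bola3 (0.47) and Glrx5 (0.19), and the 5 lower were Hscb, Isca2, Isca1 (-0.61), Nfs1 (-0.34) and Nfu1 (-0.06). The median of the 8 was -0.20, while the median of all genes was 0.29, with quartiles of -0.37 and 0.93, so relative to that shift every member but Iscu and Bola3 was lower in replicate 2, Glrx5 included.

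How many members passed 2-fold turned on the scale. In deposited TPM, Iscu was over 2-fold higher, beside 21.1% of genes, and Hscb was over 2-fold lower, beside 10.7%. With the scaling factors of edgeR (TMM) or DESeq2, which centre the ratios near 0, Hscb and Isca2 were over 2-fold lower, beside 15.1% of genes with TMM factors and 15.6% with DESeq2 size factors.

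The ratio followed GC content across genes: Spearman's rho was 0.780 over 8893 protein-coding genes averaging 100 counts or more, a description across genes that share the same 2 libraries. The median ratio ran from -0.93 in genes under 40% GC to 1.40 in genes over 60%. The transcripts of 5 members had between 45% and 50% GC, where the median ratio of all genes was -0.08. Iscu, at 56.7% GC, had a ratio of 0.95 where the trend gave 1.00, and Hscb, at 44.3% GC, had -0.91 where the trend gave -0.48. The GC content of Hscb leans on Hscb-202 (40.5%), which was given reads in replicate 1 only, while Hscb-201 has 50.4%. Bola3 lay above the trend, at 0.47 against -0.25, and Isca2 lay below it, at -0.90 against 0.09. With the trend removed Bola3 stood at 0.71 and Isca2 at -0.99, and Iscu and Glrx5 were below 0, at -0.05 and -0.40. The value of Glrx5 is uncertain, because its GC content came from the 2925 bases of the later annotation and not the 930 quantified. The part of GC content in these ratios was not tested.

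**Figure D3:**
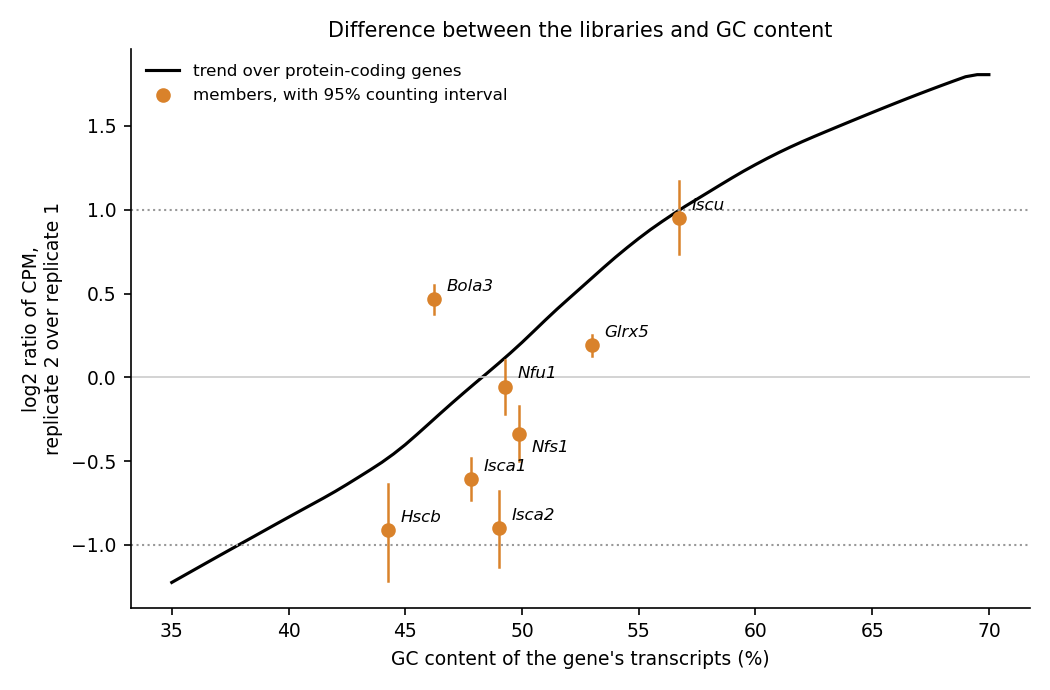
Log2 ratio of CPM, replicate 2 over replicate 1, against the GC content of each gene's transcripts in percent; points are the 8 genes with 95% counting intervals, the line is the trend over 8893 protein-coding genes and dotted lines mark 2-fold. Iscu lies on the trend at 56.7% GC, Bola3 lies above it and Isca2 lies furthest below it.

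Promoter windows from RefSeq (GRCm38.p6, 250 bases before to 50 after a start) were found for 6 of the 8 genes, with 3 windows for Bola3. Iscu and Hscb have no entry. The bases before the start are printed for the 2 high members, Glrx5 and the first Bola3 start, the one its coding transcript uses, with matches to the searched motifs in capitals. The RefSeq start of Glrx5 lies 72 bases before the start of its GENCODE transcript.
Glrx5, chr12:105032368-105032617, plus strand: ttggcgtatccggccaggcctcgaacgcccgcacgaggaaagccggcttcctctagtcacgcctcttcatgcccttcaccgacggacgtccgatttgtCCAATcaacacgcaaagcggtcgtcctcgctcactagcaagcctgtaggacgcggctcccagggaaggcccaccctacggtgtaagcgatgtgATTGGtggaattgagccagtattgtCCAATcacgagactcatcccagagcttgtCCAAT
Bola3, chr6:83348897-83349146, plus strand: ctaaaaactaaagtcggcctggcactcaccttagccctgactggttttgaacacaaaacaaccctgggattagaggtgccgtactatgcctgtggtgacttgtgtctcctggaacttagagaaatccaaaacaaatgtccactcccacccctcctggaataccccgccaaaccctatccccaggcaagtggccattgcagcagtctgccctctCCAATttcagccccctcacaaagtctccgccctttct

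The motifs were searched on both strands of the full windows. The letters CCAAT, the CCAAT box, occurred in 6 of the 8 member windows, from 5 of the 6 genes, and in 37.4% of all 32851 windows: Glrx5 held 4 matches, Isca1 and Isca2 held 2 each, Nfu1 held 1, and the window of the first Bola3 start held 2, of which 1 lies after the start. The next Bola3 window overlaps the first and also held 2, so these 2 windows are not separate observations. The window of the last Bola3 start, nearest to the start of the barely used Bola3-207, held 0. The letters AGATAA, or else TGATAA, or else AGATAG, or else TGATAG, which GATA factors can bind, occurred in 1 of the 8 member windows (Isca2, 2 matches) and in 29.8% of all windows. The letters TATAAA, the TATA box, occurred in 0 of the 8 and in 13.6% of all windows. No motif contains another, and a match is a run of letters and not a shown site.

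The members' working partners and clients were described from 8 lists of 61 genes, ranked by TPM over all transcripts of each gene. Of these, 58 were detected, with a median of 15.7 TPM. Of the 59 averaging 10 counts or more, 17 were over 2-fold higher in replicate 2 and 3 over 2-fold lower, beside the 22.3% and 9.3% above.

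The assembly partners sit with Nfs1 and Iscu in the core complex or feed it electrons, and all 6 were detected, at a median of 8.68 TPM. The highest were Ndufab1, the acyl carrier protein bound in the complex (56.0 and 109 TPM), and Fdx2, the ferredoxin that donates electrons (49.8 and 83.4 TPM), followed by Lyrm4, the small protein that steadies Nfs1 (12.7 and 8.84 TPM). The lowest were Fdx1, the ferredoxin better known from steroid synthesis (6.16 and 5.27 TPM), and Fdxr, the reductase that feeds both ferredoxins (4.83 and 5.35 TPM). Both chaperone partners of Hscb were detected: Hspa9, the mitochondrial Hsp70, had 114 and 72.8 TPM, and its exchange factor Grpel1 had 12.7 and 19.4 TPM. The 3 late mitochondrial partners were all detected, at a median of 2.31 TPM. Iba57, which acts with Isca1 and Isca2, had 1.78 and 2.85 TPM, and Nubpl, which serves complex I, had 2.23 and 1.65 TPM. Bola1, a relative of Bola3, had 5.80 and 25.5 TPM, well under Bola3 in both libraries. The coding transcript Bola1-203 held 6.38% of Bola1 in replicate 1 and 94.9% in replicate 2.

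Iron reaches the pathway through mitoferrins, and all 4 genes of the list for mitochondrial iron transport were detected. Abcb10, which is linked to mitoferrin 1 in red cell precursors, had 49.1 and 88.6 TPM. Slc25a37, mitoferrin 1 itself, had 46.5 and 35.9 TPM, of which a retained-intron model held 53.6% and 59.8%, and Slc25a28, mitoferrin 2, had 14.6 and 33.5 TPM. In the cytosolic assembly list, all 11 genes were detected at a median of 25.4 TPM. The highest were Bola2 (51.6 and 155 TPM), Ciao2b (66.7 and 84.1 TPM) and Ciao2a (94.8 and 27.1 TPM), of which Ciao2b belongs to the targeting complex for DNA-handling enzymes. Most of the first 2 levels was not on coding models: a processed transcript held 90.3% and 84.6% of Bola2, and a model typed for nonsense-mediated decay held 97.5% and 94.1% of Ciao2b. The lowest were Ndor1, an electron donor (5.49 and 13.2 TPM), and Ciao3 (2.50 and 4.85 TPM).

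The 13 mitochondrial clients were all detected, at a median of 47.7 TPM. Ferrochelatase, Fech, was the highest at 199 and 362 TPM, a level in the range of Glrx5. Ndufs7, a complex I subunit, had 46.9 and 139 TPM, of which the coding transcript Ndufs7-201 held 6.38% and 63.1%. The lowest were Ndufs8, another complex I subunit (7.05 and 17.6 TPM), and Cisd3 (5.94 and 1.58 TPM), with 67.2% and 0% of it on a processed transcript. Of 20 cytosolic and nuclear clients, 17 were detected, at a median of 9.27 TPM over the list. The highest were Abce1, the ribosome recycling factor (53.1 and 30.7 TPM), Cdkal1, a tRNA-modifying enzyme (48.9 and 23.3 TPM), and Prim2, a primase subunit (33.2 and 34.4 TPM). The lowest were Mutyh, a DNA glycosylase (0.27 and 0.19 TPM), and Dpyd, a pyrimidine-degrading enzyme, listed at 0 in both libraries. The iron regulatory genes Ireb2 (25.7 and 17.5 TPM), Fbxl5, which has Ireb2 protein removed (22.9 and 13.95 TPM), and Aco1 (11.5 and 15.3 TPM) were all detected.

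**Figure D4:**
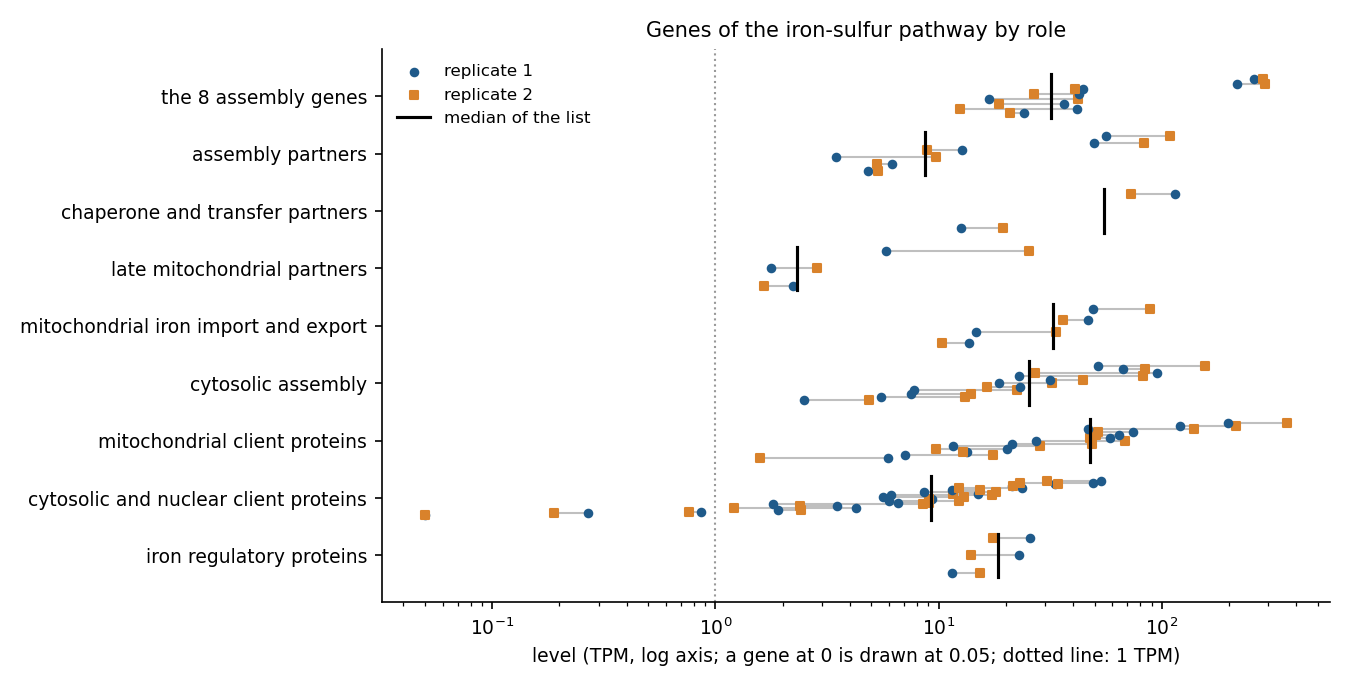
Level of each gene in TPM on a log axis, by role, with circles for replicate 1, squares for replicate 2, a grey line joining the libraries of 1 gene and a black bar at the list median. The 8 assembly genes have a median of 32.0 TPM, with Glrx5 and Bola3 to the right; late mitochondrial partners have the lowest median (2.31 TPM) and 3 cytosolic and nuclear clients fall under 1 TPM.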

How the data were processed

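PolyA RNA of MEL cells was sequenced in single-end mode, per the labels, in 1 group of 2 libraries. The labels name mm10 as the assembly, the submitters' file list names GENCODE M4 as the annotation, and no source used here names the quantifying program. Expected counts (estimated reads, not scaled), TPM and FPKM (both scaled for length), posterior TPM with credibility bounds on a linear signal scale, and the percent of a gene held by each transcript were deposited by the authors, per the file headers. Names, transcript types and positions came from GENCODE M21 (same assembly) by Ensembl ID, with 42462 of 43346 genes matched. Depth was 26149725 and 14149299 reads, of which 0.0296% and 0.0465% fell on rows that name no gene and were left out of the ratios.

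Ratios between libraries used CPM with a prior count of 1. Expected counts were rounded to whole numbers for TMM factors (edgeR 4.0.16) and size factors (DESeq2 1.42.0) in R 4.3.3; no count test was possible with 1 group. GC content came from GENCODE M21 sequences and was averaged over transcripts by TPM. Its trend was a lowess curve with a span of 0.3 and 3 iterations (statsmodels 0.14.6). Ratios of TPM used a pseudocount of 0.1. Copies needed at least 95% identity over 80% of their length (BLAST+ 2.17.0). Other steps used Python 3.11.15, pandas 2.3.3, numpy 2.4.6 and scipy 1.17.1, and figures matplotlib 3.10.9. Ratios and leading transcripts were tested on simulated data. Members and lists were chosen with earlier results of these data known. Named were all members, the 3 highest and 2 lowest genes of each other list by mean TPM, the 3 genes nearest to the highest member, member transcripts with at least 10% of their gene, and overlapping genes and copies; other transcripts and genes were named after their values were seen. Of the genes so chosen, 2 are not reported here. Alternatives were other units, scalings, pseudocounts, detection limits and leaving out each library. Intervals and floors cover counting error only.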

Additional observations from a re-analysis of the deposited data

How the results depend on the processing

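All 8 genes were detected at limits of 0.1, 5 and 10 TPM and at 10 counts in both libraries, and the median ratio of the 8 stayed below 0 under each scaling, prior count and GC setting, between -0.50 and -0.16. The median level of the 8 was 39.0 TPM when rescaled over nuclear genes, and 33.8 to 42.0 TPM with 1 library left out. The ratio of Glrx5 turned to -0.086 with TMM factors, -0.11 with DESeq2 size factors and -0.40 with the GC trend removed, and that of Iscu to -0.049 with the trend removed. Members over 2-fold apart numbered 2 with TMM factors, 2 with DESeq2 size factors and 2 in deposited TPM, alternatives added after the data were seen, and 0 with the other prior counts and with the GC trend removed. By estimated reads 2 members differed in leading transcript between the libraries. Of the 61 pathway genes 34 passed a limit of 10 TPM in both libraries, where 58 passed 1 TPM. The share of member TPM on transcripts with an annotated coding sequence was 72.9%, against 83.4% by estimated reads and 70.1% over transcripts typed protein_coding. Beyond the scalings themselves, the causes of these shifts were not tested. With 2 libraries, an SD rests on 1 difference.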
